A study of Mus musculus with 4 samples.

Results

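The genes Tnfaip3, Nfkbia, Nfkbiz, Cxcl1, Il6, Icam1 and Lcn2 are 7 transcripts of the NF-kB response, taken from 55357 gene identifiers counted in mouse pituitary cells. They were chosen because earlier readings of the same counts pointed to a higher level of NF-kB genes in 1 barcode set of the stem and folliculostellate cells. Their levels in that set are therefore given as a description, with no test. The question followed here is whether the higher level was confined to that cell class.

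Whole pituitaries of male mice were dissociated for 10x Genomics single-cell RNA sequencing, with 3 pituitaries pooled per library. Feeding began at an age of 4 weeks and lasted 12 weeks, with a high-fat diet for 2 libraries and a normal diet for 2. The labels also name the gonadotroph line Lbt2 and the gonadotroph cell type for each library, whereas tissue and protocol describe the gland, and the counts held cells of 16 classes. Barcodes carry a suffix, which divides them into the sets 1 to 4 used here, and no source says which library or diet a suffix stands for. All cells were therefore handled as 1 pooled sample, and the sets are neither diets nor replicates of a group.

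The 4 sets held from 9929 to 10212 barcodes and from 81621358 to 92665029 unique molecular identifiers (UMIs, counted transcript molecules), with medians of 7167 to 8070.5 UMIs per barcode. After filtering, 36519 cells remained, and 3046 of them stayed unnamed. At most 30 barcodes recurred between any pair of sets, and none of these lay in the stem or folliculostellate-like class. Levels are UMI counts of a gene scaled to 1000000 UMIs of a class in a set (CPM). Intervals are exact 95% Poisson intervals for levels and Clopper-Pearson intervals for shares of cells. They cover counting error only, since no replicate error can be given.

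NF-kB is a family of transcription factors held inactive in the cytoplasm by IkB proteins. Tumour necrosis factor, interleukin 1 and bacterial products activate a kinase complex that marks the IkB proteins for destruction, and the freed dimers enter the nucleus. Among the genes they switch on are their own inhibitors, together with chemokines, cytokines and adhesion molecules. The stem cells of the pituitary express Sox2 and Sox9, and folliculostellate cells are non-hormonal support cells of the anterior lobe that are known to secrete interleukin 6.

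An NF-kB motif lies close to the start of 5 members, and the stretches around these matches are shown because they occur both in the pair of members that stood apart in set 2, Tnfaip3 and Nfkbia, and in others that did not. The RefSeq promoter table (GRCm38.p6) held 6 of the 7 members, all but Nfkbiz. In the 250 bases before each start, both strands were searched for the kappa-B consensus and for the symmetric core GGAANTTCC, which can overlap it. At least 1 match was found for 5 of these 6 genes, against 5.61% of all 32841 promoters of that length (5% for the consensus and 0.813% for the core). Sequences run 5′ to 3′ on the gene's strand, and capitals mark matched bases.
Tnfaip3, chr10:19015411-19015437, minus strand: actGGAATTTCCatcGGAAATCCCCct
Nfkbia, chr12:55492652-55492736, minus strand: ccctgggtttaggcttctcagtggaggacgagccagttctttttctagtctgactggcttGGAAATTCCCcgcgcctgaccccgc
Cxcl1, chr5:90891114-90891198, plus strand: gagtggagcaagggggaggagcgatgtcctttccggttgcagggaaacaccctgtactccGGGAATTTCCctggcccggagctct
Il6, chr5:30013010-30013094, plus strand: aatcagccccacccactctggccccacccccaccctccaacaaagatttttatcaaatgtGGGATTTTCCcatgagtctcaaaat
Icam1, chr9:21015727-21015810, plus strand: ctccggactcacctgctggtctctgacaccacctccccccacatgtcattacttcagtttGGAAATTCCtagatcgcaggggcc
The Tnfaip3 stretch holds a core followed by a consensus match on the opposite strand. The Nfkbia and Cxcl1 stretches each hold a consensus that contains a core, Il6 holds the consensus alone and Icam1 the core alone. No match to these letters lay in the window of Lcn2 or in that of the other Tnfaip3 start in the table. A match is a description of letters, and binding was not measured.

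The stem or folliculostellate-like class held 2097 cells, 630, 497, 498 and 472 in sets 1 to 4. Of its 12 naming markers, 11 were found in 30.6% to 89.9% of its cells. Sox2 was found in 74.2% of these cells and in 4.37% of the others, Sox9 in 75.5% and 3.22%, and Aldh1a2, a retinoic acid synthesising enzyme, in 81.9% and 2.87%. S100b, the classical folliculostellate marker, was found in only 0.620% of them and in 0.395% of the others. S100b was thus too rare in these counts to place the class on either side of its name. The naming markers Mia (89.3% and 5.45%) and Aldoc (84.8% and 7.89%) were found at least as widely as Sox2 and Sox9. Stem and folliculostellate cells could not be told apart within the class. None of the members and none of 72 further NF-kB genes were used to build the clusters.

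Tnfaip3 and Nfkbia, which both encode brakes on NF-kB signalling, were clearly higher in set 2 of the stem or folliculostellate-like cells than in the other sets. The remaining 5 members were highest in set 2 as well, but by 1.03 to 1.44 times over the next set. For Nfkbiz and Lcn2 this lead was lost in some other ways of handling the data, with lowest ratios of 0.875 and 0.898. Of the 15754 genes with at least 20 UMIs in the class, 4675 were highest in set 2. The higher level of Tnfaip3 and Nfkbia was not confined to this class. Melanotroph-like cells, the hormone cells of the intermediate lobe, showed it too. In immune cells, where Tnfaip3 was most abundant, set 2 did not stand out.

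Among the inhibitors, Tnfaip3 (ENSMUSG00000019850) encodes the ubiquitin-editing enzyme A20, which shuts off the signal above the kinase complex. Its level in stem or folliculostellate-like cells was 10.1 CPM in set 1, 94.5 CPM in set 2, 15.7 CPM in set 3 and 14.9 CPM in set 4, from 62, 501, 71 and 74 UMIs. The interval in set 2, from 86.4 to 103 CPM, lay far above the highest of the others, which ended at 19.8 CPM. Set 2 thus stood 6.01 times above set 3 (4.68 to 7.82). With free RNA subtracted this ratio was 14.9. That subtraction took the summed counts of all kept cells as free RNA and counted all growth hormone (Gh) transcripts in the class as free. It can thus remove Tnfaip3 UMIs that belong to the class, and the rise over 6.01 is not read as a stronger difference.

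Nfkbia (ENSMUSG00000021025) encodes IkB-alpha, the main cytoplasmic inhibitor of NF-kB and one of its fastest targets. Its level was 391, 1111, 404 and 326 CPM in sets 1 to 4. Sets 1, 3 and 4 lay close together and set 2 was 2.75 times the next (2.61 to 2.90). Both genes kept a ratio above 1.5 under each of 21 other ways of handling the data. It ran from 4.14 to 14.9 for Tnfaip3 and from 2.31 to 2.94 for Nfkbia. Several of these ways could not have lowered it. A changed fold or count rule, or cells left out of other classes only, leaves the ratio as it is. The median as reference, or a left-out set, can only keep or raise it.

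Nfkbiz (ENSMUSG00000035356) encodes IkB-zeta, an inducible nuclear co-regulator that NF-kB needs for some of its targets. It did not follow the pair. Its level was 923 CPM in set 1, 952 CPM in set 2, 614 CPM in set 3 and 497 CPM in set 4. Sets 1 and 2 were thus both high, with a ratio of 1.03 (0.993 to 1.07), and once hormone genes were taken out of the library sizes set 2 stood at 0.985 times set 1. Without set 1 the ratio to the next set was 1.55.

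Of the secreted products, Cxcl1 (ENSMUSG00000029380), a neutrophil-attracting chemokine, stood at 519.7, 645, 526 and 372 CPM in sets 1 to 4. Set 2 was 1.23 times the next set (1.16 to 1.29). Il6 (ENSMUSG00000025746), which encodes interleukin 6, stood at 37.1 CPM in set 1, 93.3 CPM in set 2, 64.6 CPM in set 3 and 24.7 CPM in set 4. All 4 of its intervals were separate. They take each UMI as independent, although a minority of cells carried Il6, so they do not show that each pair of sets differed. Set 2 was 1.44 times set 3 (1.247 to 1.67). Without set 3 the ratio was 2.52.

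Lcn2 (ENSMUSG00000026822) encodes lipocalin 2, an iron-siderophore binding protein of the acute phase response. It was nearly level in sets 1 to 3, at 1036, 1142 and 1046 CPM, and lower in set 4, at 755 CPM. Its ratio of set 2 to the next set was 1.09 (1.05 to 1.13) and fell to 0.898 with free RNA subtracted. Icam1 (ENSMUSG00000037405), an adhesion molecule that binds leukocyte integrins, stood at 44.5 CPM in set 1, 64.1 CPM in set 2, 48.7 CPM in set 3 and 31.4 CPM in set 4. Set 2 was 1.32 times the next set (1.11 to 1.57). For Icam1, Lcn2, Cxcl1 and Il6 alike, set 4 was the lowest.

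A gene was called past the fold where it had at least 20 UMIs in a class and its CPM in set 2 was at least 1.5 times that in the highest other set. By this rule 2 of the 7 members were past the fold in stem or folliculostellate-like cells, against 1.36% of 15754 genes there. Since set 2 helped to choose the members, nothing is read from this difference. Tnfaip3 ranked 3 and Nfkbia 15 among these genes by the ratio, whereas Nfkbiz ranked 3727.

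**Figure D1:**
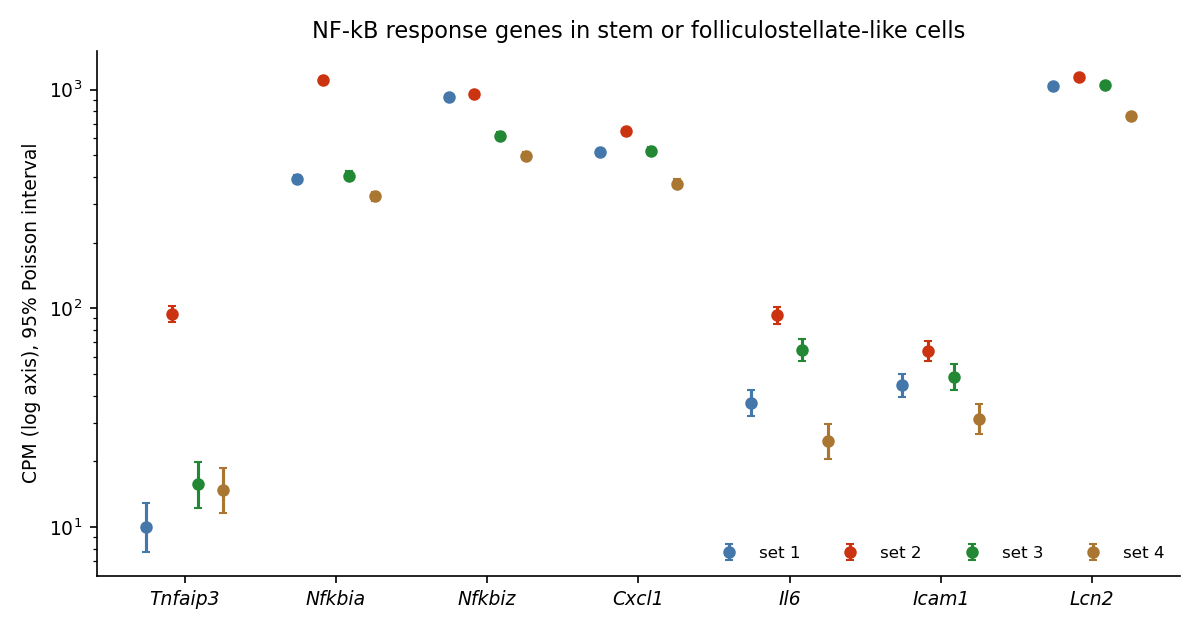
Level of the 7 genes in stem or folliculostellate-like cells, in CPM on a log axis, for each of the 4 barcode sets; points are UMI sums of the class and bars exact 95% Poisson intervals. Set 2 stands apart for Tnfaip3 (94.5 against at most 15.7 CPM) and Nfkbia (1111 against at most 404 CPM), while Lcn2 and Nfkbiz in set 2 lie close to set 1.

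The difference was also visible per cell. To compare sets at equal depth, cells of at least 2000 UMIs were thinned to 2000 UMIs, which left 515, 398, 394 and 406 cells and left out 115, 99, 104 and 66. After thinning, a Tnfaip3 UMI was found in 1.36%, 13.8%, 3.81% and 2.46% of cells of sets 1 to 4, and before it in 7.30%, 28.8%, 9.64% and 9.32%. The interval for set 2 after thinning, from 10.6% to 17.6%, lay above those of the other sets. Gonadotroph-like cells, in which set 2 did not stand out, gave 1.22%, 2.13%, 5.07% and 0.565% after thinning.

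The higher Nfkbia level was spread over many cells of the class. Its median was 6 UMIs per cell in set 2 and 2 UMIs in each of the other sets, and the cell at the 90th percentile held 31 UMIs in set 2 against 9 to 10 in the others. After thinning, 69.6% of set 2 cells held a UMI of it, against 43.6% to 53.8%. The share of Nfkbia UMIs held by the richest 10% of cells was 42.2% in set 2 and 39.3% to 40.7% in the others. Cells of set 2 also more often held several members at once: after thinning, 13.1% of them had a UMI of at least 5 of the 7 genes, against 2.52%, 4.32% and 1.23% in sets 1, 3 and 4. Such a share rises with the shares of the single genes, and whether members met in the same cells beyond that was not tested. The share with at least 1 member was 95.2% in set 2 and 89.4% to 96.1% in the others.

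Il6 was carried by a minority of cells, with a UMI after thinning in 12.1% of cells in set 2, 10.2% in set 3, 4.27% in set 1 and 4.43% in set 4. T or NK cell-like cells, which are not known as a source of Il6 or Lcn2 in this gland, held a thinned Il6 UMI in 0 to 1.23% of cells and a thinned Lcn2 UMI in 0 to 1.23%. Lcn2 was found after thinning in 62.8% to 72.8% of stem or folliculostellate-like cells, with set 1 and not set 2 the highest. Icam1 likewise showed no lead of set 2, at 7.54% against 5.91% to 8.54%.

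The class consisted of 2 clusters that differed in depth. The larger, with 1553 cells and a median of 9034 UMIs, showed ratios of 6.17 for Tnfaip3 and 2.72 for Nfkbia. In the smaller, with 544 cells and a median of 1045 UMIs, Nfkbia stood at 330.1, 368, 234 and 243 CPM, a ratio of 1.11. These levels rested on 322, 123, 129 and 358 UMIs. They come from UMI sums and so weigh the deepest barcodes of the cluster most. The share of the class UMIs held by this cluster was smallest in set 2 and largest in set 4. Tnfaip3 stood there at 14.4, 41.8, 14.5 and 19.0 CPM, a ratio of 2.20, from only 14, 14, 8 and 28 UMIs. The higher Nfkbia level of set 2 was thus carried by the deeper cluster, and whether the barcodes of low UMI count are intact cells was not tested.

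The deeper cluster was divided further, without the members or any of the pathway and response lists, into 6 sub-clusters that are kept unnamed. In the 5 with at least 15 cells in each set, both genes were highest in set 2. Nfkbia there reached 1685 CPM in sub-cluster 1, where Fgl2 and Fas were among the leading genes, against at most 493 CPM in the other sets. In sub-cluster 3, led by Scn3a and Prlr, it reached 935 CPM against at most 341 CPM. The ratio of set 2 to the next set ranged from 2.07 to 3.42 for Nfkbia and from 1.58 to 16.4 for Tnfaip3. The lowest Tnfaip3 ratio was that of sub-cluster 2, which rested on 5, 23, 12 and 1 UMIs. Il6 did not follow in all of them. It was highest in set 2 in sub-cluster 1, at 195 CPM against 51.3, 109 and 46.9 CPM. The same held in sub-cluster 2, at 69.0 CPM against 27.0, 27.2 and 4.46 CPM, and in sub-cluster 3, at 60.9 CPM against 44.8, 33.6 and 30.7 CPM. In sub-cluster 4 set 3 was higher than set 2, at 104 against 82.0 CPM. Set 2 was the lowest in sub-cluster 5, at 31.9 CPM against 45.9 to 123 CPM, from only 17, 5, 32 and 5 UMIs in sets 1 to 4. Icam1 in sub-cluster 1 stood at 109 CPM in set 2 against 62.2, 64.7 and 62.5 CPM. In sub-cluster 4 the reverse held for Cxcl1, at 184 CPM in set 2 against 435 to 449.7 CPM.

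**Figure D2:**
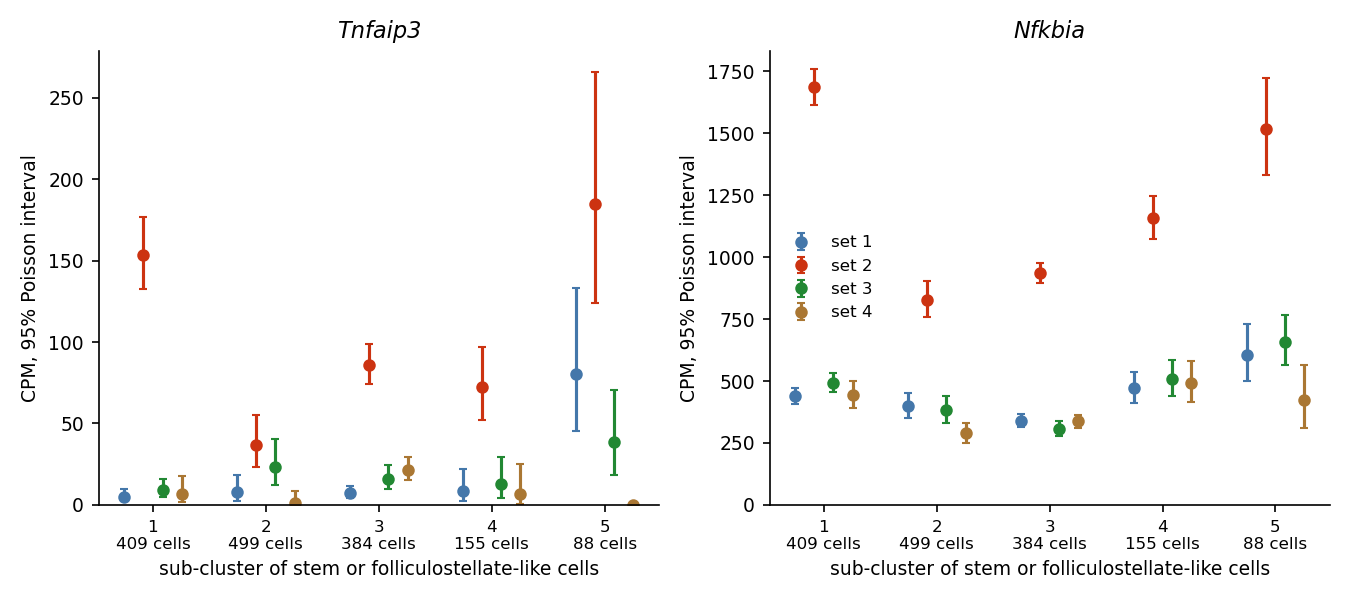
Tnfaip3 (left) and Nfkbia (right) in CPM in 5 sub-clusters of the deeper stem or folliculostellate-like cluster, for each barcode set; bars are exact 95% Poisson intervals and the number of cells stands under each sub-cluster. Set 2 is the highest in all 5, with Nfkbia from 828 to 1685 CPM against at most 659 CPM elsewhere.

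Outside this class the comparison covered the 13 other named classes that had 20 or more cells per set. Melanotroph-like cells (734 cells, of which 293, 106, 134 and 201 in sets 1 to 4) had 4 members past the fold, against 2.69% of genes there. Tnfaip3 stood at 6.32, 39.7, 9.88 and 10.3 CPM in sets 1 to 4, a ratio of 3.85 (2.19 to 7.03). Nfkbia stood at 80.6, 246, 98.8 and 92.4 CPM, a ratio of 2.49 (1.99 to 3.13). In both, the interval of set 2 lay above those of the other sets, which overlapped one another.

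Nfkbiz, which in the stem or folliculostellate-like class was high in sets 1 and 2 alike, was also past the fold in melanotroph-like cells, at 80.9, 177, 94.3 and 94.7 CPM. The fourth gene, Lcn2, rested on 7, 12, 4 and 8 UMIs, and its ratio of 2.21 had an interval from 0.830 to 6.23. No Il6 UMI was counted in melanotroph-like cells, and Cxcl1 and Icam1 held 49 and 41 UMIs with ratios of 1.41 and 1.47. With free RNA subtracted, or with the 1% of cells richest in members left out, Lcn2 was no longer past the fold and 3 members remained.

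Melanotroph-like cells also held transcripts of the stem markers, at 156, 246, 180 and 195 CPM for the sum of all 12 in sets 1 to 4, against 6069 to 7193 CPM in the stem or folliculostellate-like class. In the 281 melanotroph-like cells without a UMI of any of the 12, Nfkbia stood at 65.0, 205, 69.7 and 75.9 CPM and Nfkbiz at 77.2, 157, 57.6 and 75.9 CPM. Both were thus still past the fold in cells that held none of these markers, where set 2 had 30 cells. Tnfaip3 there rested on 3, 7, 3 and 4 UMIs, under the minimum of 20, with levels of 4.07, 34.2, 9.09 and 7.78 CPM.

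Corticotroph-like cells, the source of ACTH, showed the pattern for Tnfaip3 but not for Nfkbia. Tnfaip3 stood at 6.31, 23.7, 7.79 and 5.49 CPM, a ratio of 3.05 (2.10 to 4.53), and without cells holding a stem marker UMI the ratio was 3.39. Nfkbia stood at 333, 383, 245 and 204 CPM, a ratio of 1.15. Il6 was past the fold as well, but at low levels of 1.96 CPM in set 1, 4.95 CPM in set 2 and 0.716 CPM in set 4, with no UMI in set 3, which allows up to 0.687 CPM at a floor of 3 counts. These were 2 of 7 members, against 1.33% of genes in the class.

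Lactotroph-like cells, which make prolactin, had Tnfaip3 past the fold (against 1.61% of genes), at 9.03, 16, 7.33 and 8.41 CPM. Without cells holding a stem marker UMI that ratio fell from 1.77 to 1.49. Their Nfkbia was also highest in set 2, at 278, 417, 297 and 292 CPM, a ratio of 1.41 (1.35 to 1.46). Pericyte or mural-like cells had Tnfaip3 past the fold (against 3.78% of genes), at 27.1, 53.5, 33.1 and 17 CPM, from 65 UMIs in all and with an interval of the ratio from 0.821 to 3.15. In somatotroph-like cells, the growth hormone class, Il6 passed (against 2.46% of genes) with 20 UMIs among 13218 cells. Tnfaip3 went the other way there, at 12.5, 13.3, 27.0 and 20.6 CPM, with set 3 the highest.

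In 8 classes no member was past the fold. The share of all genes past it was 0.988% in gonadotroph-like, 1.15% in thyrotroph-like, 2.36% in endothelial-like, 3.12% in fibroblast-like, 1.46% in macrophage or microglia-like, 2.70% in T or NK cell-like, 2.79% in B cell-like and 3.30% in neutrophil-like cells. A count of 0 among the 3 to 7 members measured in each is near these shares. The neutrophil-like cluster was also led by Cd209a and Mgl2, which are not neutrophil genes, and its name is uncertain.

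**Figure D3:**
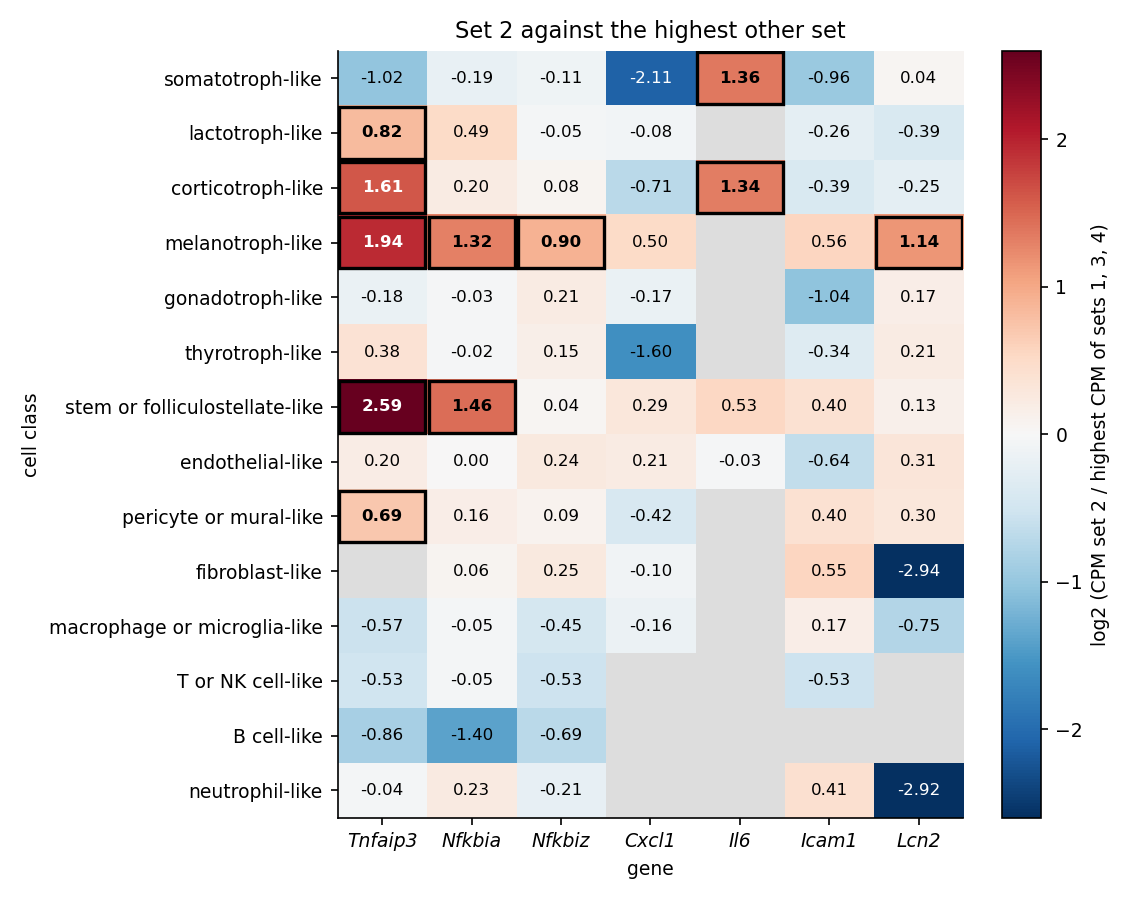
Log2 ratio of the CPM in set 2 to the highest CPM in sets 1, 3 and 4, for 7 genes (columns) in 14 cell classes (rows); framed cells are past the 1.5-fold rule and grey cells had fewer than 20 UMIs. Tnfaip3 and Nfkbia are framed together in stem or folliculostellate-like cells (2.59 and 1.46) and in melanotroph-like cells (1.94 and 1.32).

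Across all 4 sets the classes differed more than the sets did for most members. Tnfaip3 was highest in the T or NK cell-like class, at 928, 644, 831 and 659 CPM. Macrophage or microglia-like cells came next, at 553, 373, 361 and 357 CPM. For both, set 1 and not set 2 was the highest, and for the T or NK cell-like class the range over the sets did not overlap that of any other class. Stem or folliculostellate-like cells came sixth, with 33.8 CPM over all sets, and their range over the sets overlapped that of the next class. Nfkbia was highest in neutrophil-like cells, at 1134 CPM over all sets, followed by macrophage or microglia-like (939.6 CPM) and endothelial-like cells (721 CPM), and stem or folliculostellate-like cells came sixth with 560.4 CPM. In set 2 alone their Nfkbia level of 1111 CPM lay between those of macrophage or microglia-like (1039.5 CPM) and neutrophil-like cells (1342 CPM).

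Lcn2, Il6 and Cxcl1 were instead products of the stem or folliculostellate-like class in every set. It gave 7.05% of all UMIs of the kept cells but 87.0% of those of Lcn2, 82.9% of Il6 and 60.7% of Cxcl1. Lcn2 stood at 998 CPM over all sets, against 252 CPM in endothelial-like cells, the next class, and Cxcl1 at 518 against 203 CPM. For both, the ranges over the sets did not overlap between these classes. For Cxcl1 they did overlap with the pituicyte-like class, which had 8 cells in set 2. It stood at 191 CPM over all sets and reached 382 CPM in set 3, above the 372 CPM of set 4 in the stem or folliculostellate-like class. Il6 stood at 54.3 against 16.8 CPM, and its ranges over the sets did overlap. Nfkbiz led here too, at 763 CPM, but macrophage or microglia-like cells at 729 CPM lay within its range over the sets.

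Icam1 was highest in pericyte or mural-like (319 CPM), endothelial-like (261 CPM) and fibroblast-like cells (210.4 CPM), and stem or folliculostellate-like cells came seventh at 47.3 CPM. The pericyte or mural-like class, of 198 cells, carried the 9 endothelial markers at 5172 to 6411 CPM and the 6 fibroblast markers at 3723 to 4897 CPM, both above the 7 pericyte markers at 2236 to 3819 CPM, so that its levels are those of a mixed class. Endothelial-like cells carried the 12 stem markers at 2238, 2410, 1427 and 1484 CPM in sets 1 to 4, and their Lcn2 level stood at 279, 345, 161 and 160.2 CPM. The part of these stem transcripts in the endothelial levels of Lcn2, Cxcl1 and Il6 was not tested. Icam1 in endothelial-like cells ran differently, at 153, 242, 378 and 333 CPM, with set 3 the highest.

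**Figure D4:**
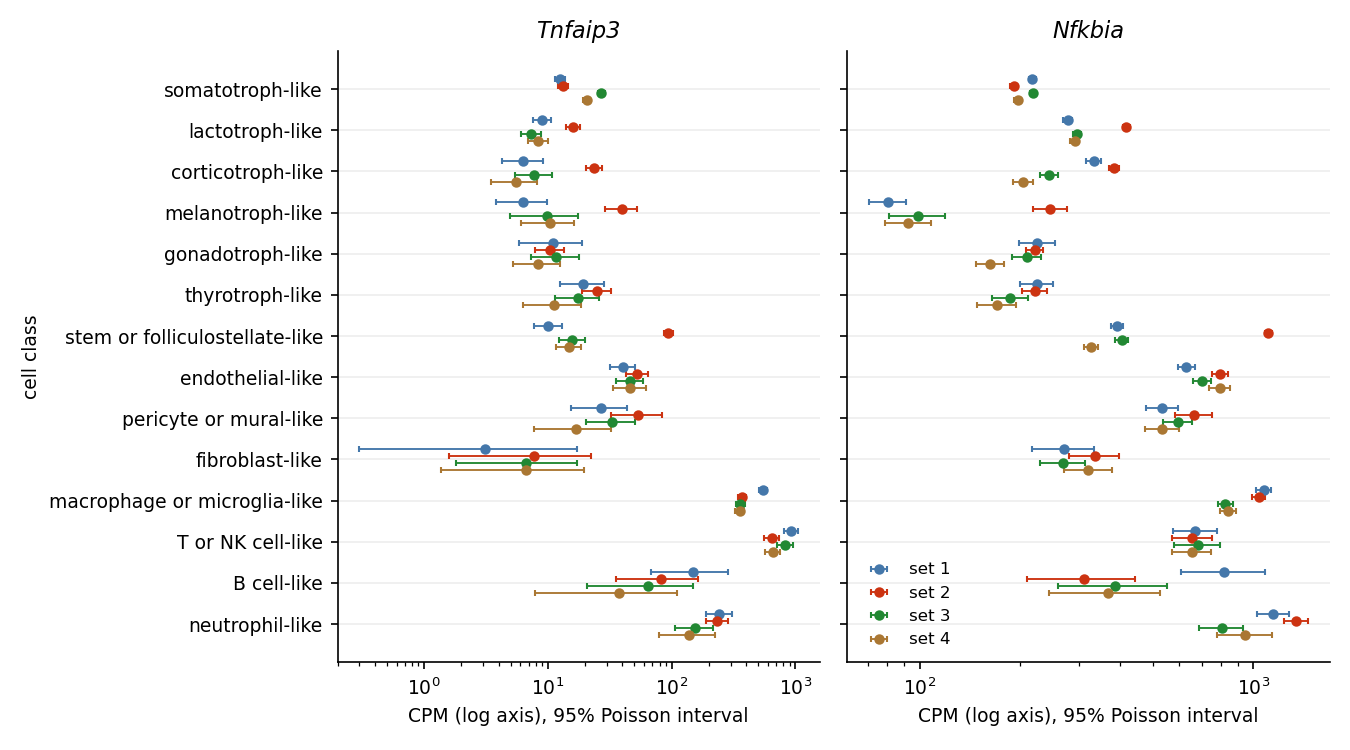
Tnfaip3 (left) and Nfkbia (right) in 14 cell classes, in CPM on log axes, for each barcode set; bars are exact 95% Poisson intervals. Set 2 lies apart in stem or folliculostellate-like and melanotroph-like cells for both genes, and Tnfaip3 is highest in T or NK cell-like cells (644 to 928 CPM), where set 2 is the lowest.

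The other genes of the pathway in stem or folliculostellate-like cells were read from lists of 72 genes, of which 58 had at least 20 UMIs. Of these, 9 were past the fold in set 2 and 2 were below it by the same factor, against 1.36% and 2.62% of all genes. The median ratio of set 2 to the highest other set was 0.994, against 0.905 over all genes, so most genes of the lists did not share the pattern. The lists were drawn up with earlier results of these counts known, and nothing is called particular to them.

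Of 7 ligands only 2 reached 20 UMIs, Il1b with 22 and Tnfsf11 with 72, and neither was past the fold. Of 13 measured receptors and adaptors, Tlr2, a receptor for bacterial lipoproteins, was past the fold at 5.85, 10.2, 5.53 and 5.63 CPM. Il1r1, the interleukin 1 receptor, was lower in set 2, at 11.5, 5.28, 9.07 and 17.3 CPM. Tnfrsf1a, the main receptor of tumour necrosis factor, stood at 74.3, 85.4, 73.0 and 64.5 CPM. The receptor genes thus went both ways.

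Of the 9 subunits and kinases, 7 were highest in set 2 and 1 was past the fold, against 4675 and 214 of all 15754 genes. Relb, a subunit of the alternative pathway whose gene is itself an NF-kB target, stood at 14.6, 28.5, 17.5 and 14.3 CPM. Nfkb1 and Nfkb2, which encode the precursors of p50 and p52, had ratios of 1.36 and 1.38, and Chuk, a kinase of the complex, had 32.2 CPM in set 2 against 33.0 to 39.8 CPM.

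Of the list of inhibitors, which leaves out the members, 2 of 11 measured genes were past the fold, against 1.36% of all genes. Nfkbie, which encodes IkB-epsilon, stood at 8.45, 33.6, 12.0 and 6.23 CPM, a ratio of 2.81. Birc3, a ubiquitin ligase of the receptor complex, stood at 13.2, 47.3, 18.2 and 13.1 CPM, a ratio of 2.61. In both, set 2 was well above the other 3 sets, as for Nfkbia and Tnfaip3, whereas Birc2, its close relative, stood at 51.1 CPM in set 2 and 64.4 CPM in set 1.

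Of 23 measured targets, 5 were past the fold and 1 was below, against 1.36% and 2.62% of all genes. Cxcl2, a chemokine related to Cxcl1, stood at 6.18, 46.0, 1.77 and 3.22 CPM, the highest ratio of the lists at 7.45. Cxcl10, a chemokine that attracts T cells and that interferon also induces, stood at 16.4, 98.6, 31.4 and 8.24 CPM. Irf1, a transcription factor induced by both signals, stood at 389.8, 924, 399.7 and 253 CPM, an order close to that of Nfkbia. Gadd45b, a stress response gene, had a ratio of 1.61, and Vcam1, an adhesion molecule, passed on only 21 UMIs. Sod2, a mitochondrial superoxide dismutase, stood at 146, 138, 141 and 139 CPM, and Ch25h, a cholesterol hydroxylase, at 7.80, 4.52, 5.98 and 4.62 CPM.

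**Figure D5:**
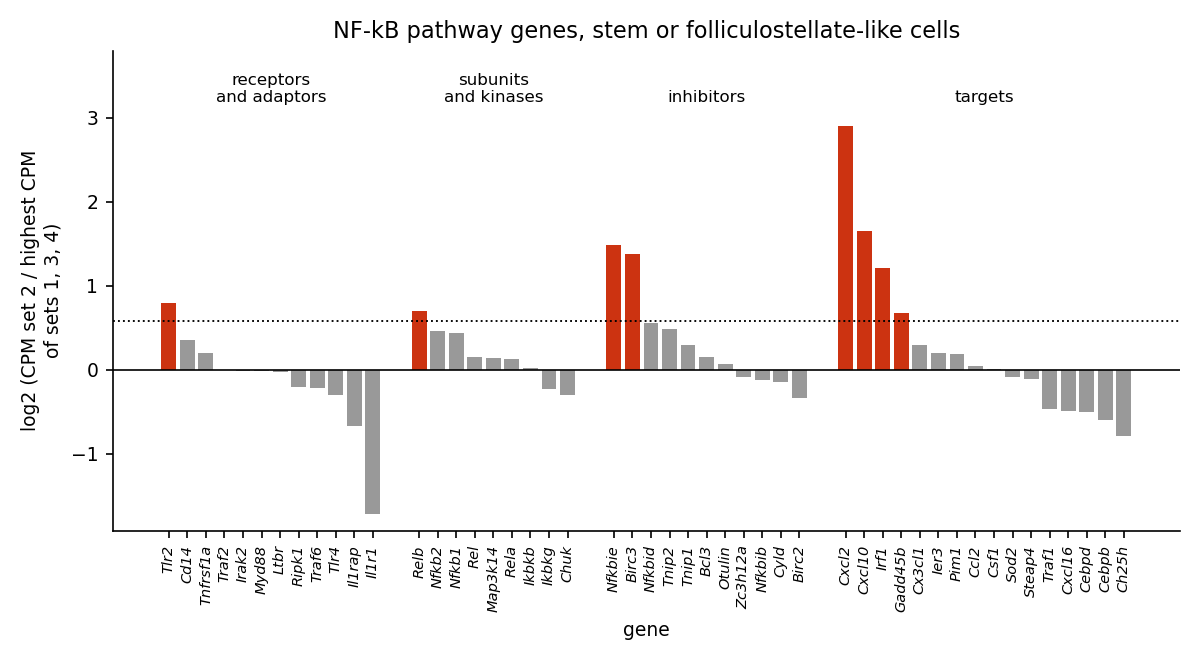
Log2 ratio of the CPM in set 2 to the highest CPM in sets 1, 3 and 4 in stem or folliculostellate-like cells, for the NF-kB pathway genes with at least 100 UMIs, grouped by role; the dotted line is the 1.5-fold rule and coloured bars are past it. Cxcl2 (2.90), Cxcl10 (1.65), Nfkbie (1.49) and Birc3 (1.38) stand highest, and most genes lie between -1 and the line.

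Melanotroph-like cells had 9 of 40 measured pathway genes past the fold as well, against 2.69% of all genes there. Cxcl2 stood there at 1.66, 24.5, 0.898 and 1.15 CPM from 37 UMIs in all, and Irf1 at 97.2, 307, 127 and 151 CPM. Nfkbie and Birc3 passed on 30 and 44 UMIs. These 4 genes were past the fold in both classes. The melanotroph-like pattern was not limited to NF-kB genes, since 11 of 24 immediate early genes, among them Fos, Jun, Atf3 and Ier2, and 5 of 12 heat shock genes, among them Hspa1a and Dnajb1, were past the fold there as well. The median ratio was 1.49 for the immediate early list and 1.32 for the heat shock list, against 1.00 for the NF-kB lists and 0.841 for all genes in the class, and the part of such a response in the levels of the members there was not tested.

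In the other classes fewer pathway genes passed. In corticotroph-like cells 2 of 47 did, Relb and Nfkbie (against 1.33% of all genes), beside 5 of 12 heat shock genes, and in lactotroph-like cells 1 of 53, Cxcl16 (against 1.61%). The pericyte or mural-like class had 6 of 52 (against 3.78%), the neutrophil-like class 5 of 49 (against 3.30%), the fibroblast-like class 4 of 44 (against 3.12%), the endothelial-like class 3 of 55 (against 2.36%) and the somatotroph-like class 2 of 59 (against 2.46%).

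Lists of neighbouring responses were also read in stem or folliculostellate-like cells. None of 25 immediate early genes, 12 heat shock genes or 10 genes of interleukin 6 receptors and STAT3 responses was past the fold. Of 20 interferon-induced genes, 1 was (Ifit2). The share over all genes was 1.36%, and counts of 0 in lists of this size are near it. Heat shock genes were nonetheless highest in set 2 for 10 of the 12, at a median ratio of 1.05. Over all 15754 genes, 4675 were highest in set 2, at a median ratio of 0.905. Atf3 and Fosb, which cell dissociation is known to induce, stood at 4629.7 and 3401 CPM in set 2, 1.18 and 1.21 times the next set. Klf4 and Klf2 had ratios of 1.40. Stat3, through which interleukin 6 signals, stood at 278, 359, 326 and 228 CPM, and Ifit1 and Ifit3 were lower in set 2 than in any other set, at 19.6 and 10.7 CPM. No test was made across the sets for any list.

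Marker lists of other cell types in the stem or folliculostellate-like class went different ways. The 10 macrophage markers summed to 46.8, 44.7, 27.9 and 41.4 CPM in sets 1 to 4, the 8 T or NK cell markers to 0.813, 1.89, 5.75 and 1.21 CPM and the 6 neutrophil markers to 1.46, 0.566, 0.443 and 1.61 CPM, with 1 of the 6 at 0. None of these immune lists was highest in set 2. The 7 pericyte markers, at 42.1, 57.1, 46.0 and 32.0 CPM, were highest there. So were the 5 corticotroph markers, at 1341, 2341, 961 and 2154 CPM, and the 5 melanotroph markers, at 1353, 2350, 970 and 2176 CPM. Both the corticotroph and the melanotroph list hold Pomc, which alone stood at 1331, 2317, 954 and 2138 CPM. The part of these lists in the result was not tested. Hormone transcripts, which can reach other cells as free RNA, made up 10.4%, 6.25%, 9.93% and 16.9% of UMIs, with set 2 the lowest. How much of them was free RNA was not tested. Once hormone genes were taken out of the library sizes the same number of members, 2, was past the fold. Median depth was 7271, 7907, 6924 and 7921.5 UMIs and the median mitochondrial share 1.04%, 1.39%, 1.34% and 1.22%, with set 2 the highest in the latter.

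The genes with the pattern most like that of the members were sought among 11773 genes with at least 100 UMIs in the class. The measure was the Pearson correlation of log2(CPM + 1) with the mean of the standardised members over 56 points, 14 classes in 4 sets, which share their libraries and depth. Highest were Pld2 (0.898), a phospholipase, Niban1 (0.884), Qk (0.882), an RNA-binding protein, Tnfaip2 (0.868), Gcnt1 (0.864), Pfkfb3 (0.852), a regulator of glycolysis, Myd88 (0.847), the adaptor of the Toll-like and interleukin 1 receptors, and Frmd4b (0.842). Of these, Pld2 was past the fold in that class, with 30.6, 46.2, 29.7 and 27.7 CPM, and Tnfaip2, named for its induction by tumour necrosis factor, had a ratio of 1.47.

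Over the same 56 points the members fell into different patterns. Tnfaip3 and Nfkbia correlated at 0.758, Nfkbia and Icam1 at 0.727, Il6 and Lcn2 at 0.803 and Cxcl1 and Lcn2 at 0.724, whereas Tnfaip3 and Cxcl1 stood at -0.239 and Tnfaip3 and Lcn2 at -0.138. These values describe mostly the differences between classes, since T or NK cell-like and macrophage or microglia-like cells lead for Tnfaip3 and the stem or folliculostellate-like class for Lcn2.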

How the data were processed

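Barcoded transcripts of whole pituitary cells were deposited as 1 matrix of UMI counts. The authors' matrix was written by Cell Ranger 8.0.1, per the file headers, and Seurat is named without a role per the submitters' processing notes; the build and the annotation are not given in the sources used. Members, gene lists and markers were chosen with earlier results of these data known. Barcodes with at least 500 UMIs, 250 genes and at most 25% mitochondrial UMIs were kept (567 of 40406 removed). Scrublet in scanpy 1.11.5 was run per set; its automatic threshold marked 2, 923, 670 and 0 barcodes, so a score of 0.15 was used in all sets, chosen after seeing the data, which marked 3320 (8.08% to 8.58%). Remaining counts were scaled to 10000 per cell, log transformed and clustered (2000 variable genes within sets, without members and NF-kB lists, 30 components, 15 neighbours, Leiden resolution 1, igraph 0.11.9, no integration), giving 25 clusters. A name needed 3 markers with a log2 fold of 0.5 over other cells, found in 5% of cells; the latter threshold was set after seeing the data. Names describe clusters rebuilt here.

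UMIs were summed per class and set. A gene without counts was given a floor of 3 counts. No test between sets was run. Of each list, up to 4 genes with the highest ratio of set 2 to the highest other set and up to 2 with the lowest to the lowest other set, with at least 100 UMIs, were eligible to be named; Vcam1, and the genes named in classes other than the stem or folliculostellate-like one, were chosen after their values were seen. The rule was run on simulated counts with counting error only. That run cannot show how the rule behaves where cells or sets vary. Alternatives varied doublets, filters, clustering, class assignment, library sizes, free RNA, depth, the fold, the reference level and each set. The scripts ran in Python 3.11.15 with pandas 2.3.3, scipy 1.17.1 and numpy 2.4.6.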

Additional observations from a re-analysis of the deposited data

How the results depend on the processing

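Over 21 alternatives, 2 of them chosen after seeing the data, the number of members past the fold in stem or folliculostellate-like cells was 2 except with the looser fold rule (4), the median of the other sets as reference (4), the top 1% of cells left out (3) and, when single sets were left out, 2 to 3. The 1 other class with at least 4 members past the fold, the melanotroph-like one, became 3 classes with the median as reference, and 0 with free RNA subtracted, the top 1% of cells left out, thinning, a 2-fold rule, a minimum of 50 UMIs or cells holding stem markers left out. It stayed 1 when single sets were left out. The number of other classes with both Tnfaip3 and Nfkbia past the fold, a count added after seeing the data, was 1, but 2 with the looser fold rule or the median, 1 to 2 when single sets were left out (2 without set 1, where the corticotroph-like class joined), and 0 with thinning or cells holding stem markers left out. In both of the latter, Nfkbia and Nfkbiz stayed past the fold in melanotroph-like cells, and Tnfaip3 kept ratios of 2.81 and 3.77 but fell under 20 UMIs. Fewer UMIs or a lower rule follow from the construction of these alternatives; otherwise the cause was not tested. Ratios were recomputed for the 7 members in stem or folliculostellate-like cells and for Tnfaip3 and Nfkbia in melanotroph-like cells, and Tnfaip3 and Nfkbia kept theirs above 1.5 in both classes. A changed fold or count rule has no effect on a ratio, and the median as reference or a left-out set cannot lower it. Few cells limit several classes, such as the neutrophil-like (25 to 56 per set) and B cell-like ones (32 to 40). No paired analysis was possible because the files link none of the barcodes to a numbered library.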

Other observations

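Set 2 was not the only set to hold a high level of a member. Set 1 was the highest for Nfkbia in B cell-like cells, at 819 CPM against 310.3 to 386 CPM in the others, for Nfkbiz in the T or NK cell-like class, at 281 CPM against 180.2 to 195 CPM, and for Lcn2 in neutrophil-like cells, at 143 CPM against 0 to 19.0 CPM. Set 4 was the highest for Icam1 in somatotroph-like cells, at 4.06 CPM against 1.89 to 2.08 CPM. These combinations were chosen after their values were seen.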
